A study of Mus musculus with 12 samples.

Results

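The 10 genes described here act at the intracellular end of canonical WNT signalling or in its feedback at the cell surface: Ctnnb1, Axin2, Lef1, Tcf7, Tcf7l1, Tcf7l2, Rnf43, Znrf3, Lgr4 and Lgr5. They were chosen by name. The Ensembl identifier of each was looked up among the 55487 genes of a table of RNA sequencing read counts from mouse male germ cells, and all 10 were found. The table holds 12 libraries, 3 at each of 4 ages of the gonocyte, the germ cell of the fetal and newborn testis: E13.5 and E16.5 before birth (embryonic day), P0 at birth and P3 (3 days later). The cells came from testes of mice with the Mvh-Venus transgene, a fluorescent reporter under the promoter of the germ cell gene Mvh, also named Ddx4. All titles and source names call the mice wild type, whereas the genotype tag reads Morc1 (+/-) at E13.5 and P0 and Morc1 (-/-) at E16.5 and P3, so libraries were grouped by age alone. Age and that tag cannot be told apart in a comparison of consecutive ages, or of P3 with E13.5. P0 with E13.5, and P3 with E16.5, each carry 1 tag. Nothing in the labels says whether the libraries of an age came from separate animals, so p-values measure the spread between these libraries, which may be technical.

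In canonical WNT signalling a secreted WNT protein binds a Frizzled receptor together with LRP5 or LRP6 and stops a complex built on AXIN and APC from marking beta-catenin for destruction. Beta-catenin then enters the nucleus and turns TCF/LEF proteins, which hold target genes silent without it, into activators. Targets include brakes on the pathway itself: Axin2 rebuilds the destruction complex, and the ubiquitin ligases RNF43 and ZNRF3 remove Frizzled from the membrane unless R-spondins and their receptors LGR4 and LGR5 take the ligases away. In the testis, WNT signals have been studied in primordial germ cells, in spermatogonia and in the somatic cells around them.

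Between 40946616 and 51533747 reads were assigned to genes in a library. A normalized count is a read count divided by the size factor of its library, and these factors ran from 0.919 to 2.07, highest at P0. The germ cell label was checked with 6 marker genes, whose summed normalized counts ranged from 131091 to 139843 in the P0 libraries, the lowest, and from 301145 to 318617 in those of E13.5, the highest. Somatic markers were far lower but present: 7 Sertoli cell genes summed to at least 2793 and at most 5056 in P0 libraries, and to between 894 and 2503 in all others. The 7 peritubular and interstitial genes reached 3610 to 4010 at P0 against 240 to 261 at E13.5. Leydig cell genes summed to 7763 in E16.5 library 4 and 6201 in P0 library 1, above the other libraries of those ages, and P3 library 3 held 310 normalized counts of mast cell genes against at most 3.88 in the others of P3. Blood cell genes summed to 1791 to 2513 at E16.5 and 1603 to 2532 at P0, and macrophage genes to 985.6 to 1169 at E16.5, above every other age. In bulk RNA, fewer cells of a type and less RNA per cell cannot be told apart.

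All 10 genes passed the filter on low values (10 or more normalized counts in 3 or more libraries), and all 10 differed among the 4 ages in limma's moderated F-test, with Benjamini-Hochberg adjusted p from 4.85e-14 for Lgr4 to 0.0264 for Znrf3. Of all 22384 genes tested, 95.2% passed the same test, so passing it did not set these genes apart. The profiles took several forms. Lgr4 and Tcf7l1 were high at E13.5 only, Lef1 peaked at E16.5, Rnf43 and Lgr5 were highest at P0, and Tcf7l2 was highest at P3. Ctnnb1 and Tcf7 were abundant throughout, and the log2 fold changes of Znrf3 between any 2 ages lay between -0.44 and 0.26 in the deposited scaling.

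**Figure D1:**
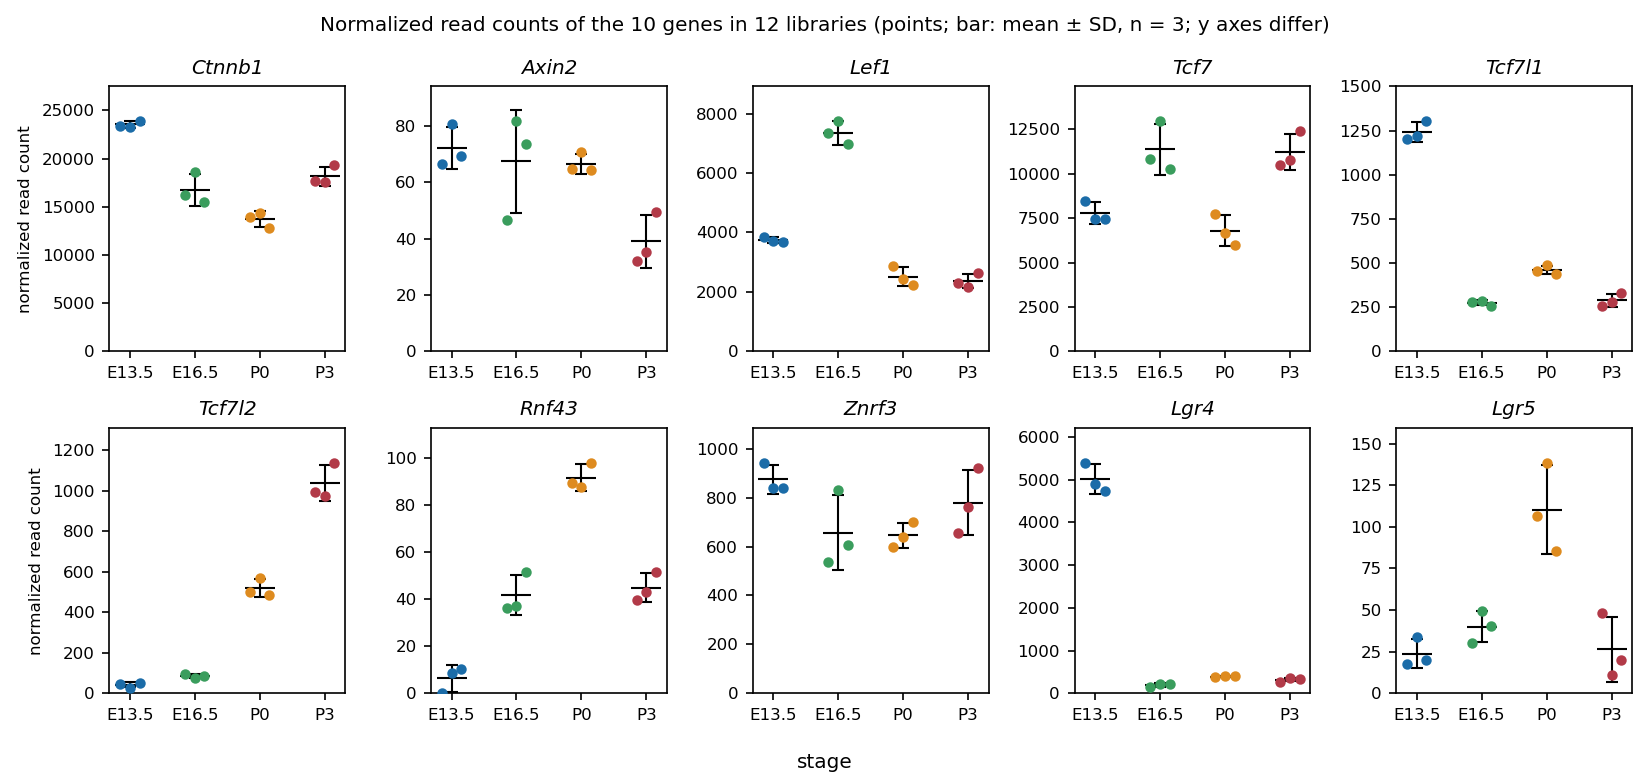
Normalized read counts (y axis, linear, each panel with its own range from 0) of the 10 genes by age (x axis); points are libraries and bars the mean ± SD of 3. Lgr4 lies between 4726 and 5399 at E13.5 and at or below 403 at every other age, while Tcf7l2 climbs from at most 53.6 at E13.5 to at least 976 at P3.

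Between E13.5 and E16.5, limma called 4 of the 10 genes higher (Lef1, Tcf7, Tcf7l2, Rnf43) and 4 lower (Ctnnb1, Tcf7l1, Znrf3, Lgr4) at an adjusted p under 0.05. The share of all genes called in that comparison was 80.1%, made up of 45.5% called higher and 34.6% called lower. From E16.5 to P0, 4 rose (Tcf7l1, Tcf7l2, Lgr4, Lgr5) and 3 fell (Ctnnb1, Lef1, Tcf7), beside 61.0% of all genes called (27.6% higher, 33.4% lower). Between P0 and P3, 3 rose (Ctnnb1, Tcf7, Tcf7l2) and 3 fell (Axin2, Tcf7l1, Lgr5), beside 76.5% of all genes (40.1% higher, 36.4% lower). Where a change of at least 2-fold was also required, 4, 3 and 1 of the 10 genes remained in these comparisons, beside 59.7%, 34.0% and 54.7% of all genes. In the third, Tcf7l2 fell just short of that limit, at 0.999 on the log2 scale. Calls of 8 of 10 genes in the first comparison lie near the background share, 7 of 10 in the second above it and 6 of 10 in the third below it, so the counts do not set these genes apart. The median log2 fold change of the 10 genes was 0.20, 0.38 and -0.19 in these 3 comparisons, and that of all genes tested was 0.31, -0.01 and 0.05.

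The directions of small changes depended on how libraries were scaled. The factors of P0 libraries were 1.84 to 2.07 as deposited and 1.49 to 1.66 as median of ratios, and those of E13.5 were 0.919 to 0.951 and 1.04 to 1.09. Setting all library totals equal, in place of the deposited factors, moved the median of all genes to 0.84, 0.68 and -0.86. With equal totals the 10 genes gave 5 higher and 2 lower calls in the E16.5 step, 8 and 1 in the P0 step, and 0 and 8 in the P3 step. Of the 23221 genes tested with equal totals, 12911 were called higher and 5506 lower, then 12743 and 3443, then 4577 and 13565. Median-of-ratios factors gave the 10 genes 4 and 3, 4 and 2, and 2 and 6. The counts for all 22735 genes tested with those factors were 11357 and 6793, 8541 and 5791, and 6684 and 10703. Under all 4 scalings tried, 7, 8 and 7 of the 10 genes kept their sign in the 3 comparisons. Ctnnb1 and Znrf3 did not keep theirs in any of the 3, Axin2 did not for E16.5 against E13.5, and Tcf7 did not for P3 against P0.

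**Figure D2:**
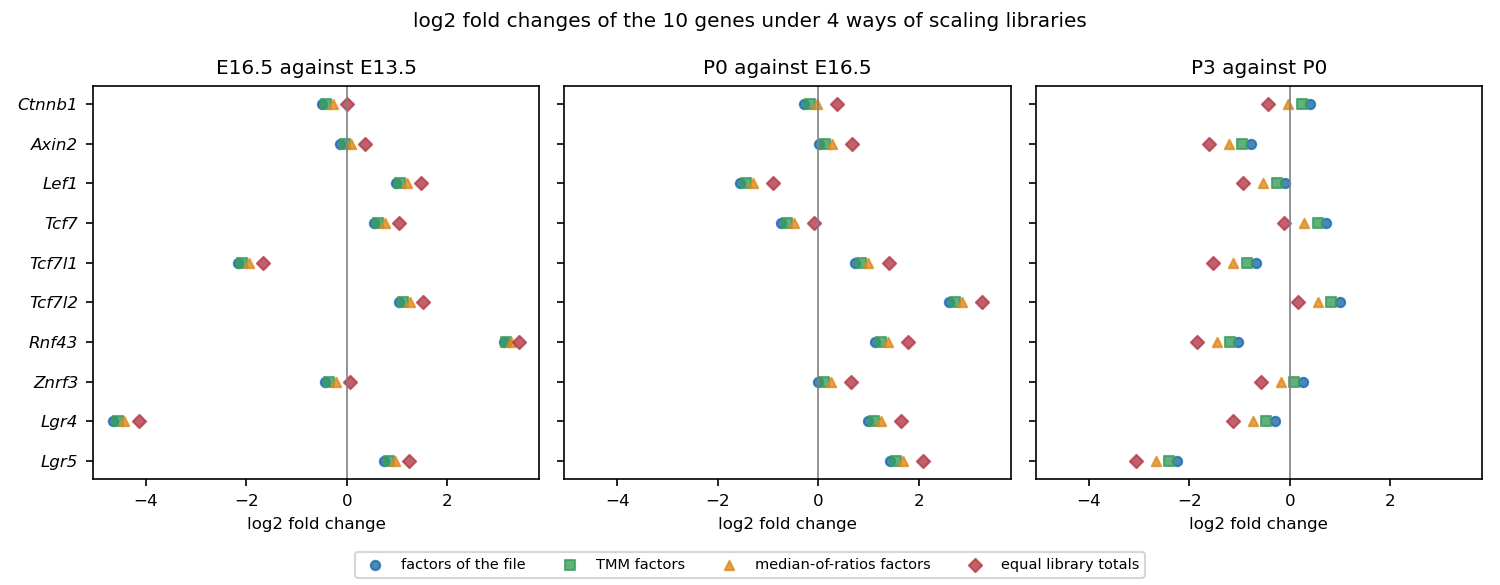
log2 fold changes (x axis) of the 10 genes (rows) between consecutive ages under 4 scalings: the factors of the deposited file, TMM factors, median-of-ratios factors and equal library totals. Lgr4, Tcf7l1, Lef1 and Tcf7l2 stay on 1 side of 0 in each panel, while Ctnnb1 and Znrf3 cross it.

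Ctnnb1 encodes beta-catenin, which carries the WNT signal into the nucleus and also links cadherins to the actin skeleton. It had 23394, 23300 and 23940 normalized counts in the E13.5 libraries, 16185, 18638 and 15510 at E16.5, 13991, 14337 and 12752 at P0, and 17638, 17525 and 19318 at P3. No library of 1 age overlapped one of the next, and P0 was the lowest age. The means were 23544 ± 346, 16777 ± 1646, 13693 ± 834 and 18160 ± 1004 (SD, n = 3). By limma, log2 fold changes between consecutive ages were -0.49, -0.29 and 0.41 (SE 0.0757 each), with adjusted p of 1.47e-05, 0.00332 and 0.000123. With equal library totals the same comparisons gave 0.01, 0.37 and -0.43, and with median-of-ratios factors the steps to P0 and to P3 were each -0.03 (adjusted p = 0.713 and 0.693). Ctnnb1 (ENSMUSG00000006932, chr9:120929216-120960507, plus strand, GRCm38) shares 15.1% of its exon bases with Ulk4, on the other strand, or Mir7090. The strand setting of the counting is not given in the sources used here, so reads of the overlap cannot be assigned to either, and Ulk4 itself had at most 1167 normalized counts.

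The 4 genes of DNA-binding partners of beta-catenin followed 4 different courses. Tcf7, which encodes TCF1, was the most abundant per length, Lef1 second, and Tcf7l1 and Tcf7l2 exchanged the third place. Per kb of exon, the mean level of Tcf7 was 2966, 4329, 2592 and 4275 normalized counts at the 4 ages in order, Lef1 had 427, 837, 286 and 269, Tcf7l1 had 317, 70.2, 117 and 73.5, and Tcf7l2 had 4.80, 9.67, 59.1 and 118. At P3, Tcf7 exceeded 97.4% of tested genes per kb and Tcf7l2 exceeded 60.8%, against 29.4% for Tcf7l2 at E13.5.

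Tcf7 (ENSMUSG00000000782, chr11:52252371-52283014, minus strand) had 8483, 7448 and 7430 normalized counts at E13.5, 10815, 12988 and 10289 at E16.5, 7731, 6673 and 6007 at P0, and 10489, 10799 and 12381 at P3. Both E16.5 and P3 lay above both other ages in every library. They are also the ages with the tag Morc1 (-/-), so age and tag cannot be told apart for these steps. The log2 fold changes were 0.54, -0.74 and 0.73 (SE 0.103 each), with limma's adjusted p of 0.000147, 1.07e-05 and 7.63e-06. P3 against E16.5 gave -0.01 (adjusted p = 0.908, limma), with overlapping libraries. P0 against E13.5, both with the tag Morc1 (+/-), gave -0.20 (adjusted p = 0.0816, limma), also with overlapping libraries. Under equal totals the fall to P0 was -0.08 (adjusted p = 0.465) and the step to P3 was -0.11, whereas the rise at E16.5 was 1.05.

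Lef1 (ENSMUSG00000027985, chr3:131110471-131224356, plus strand) encodes the lymphoid enhancer binding factor. It had 3854, 3717 and 3680 normalized counts at E13.5, 7343, 7761 and 6965 at E16.5, 2858, 2429 and 2248 at P0, and 2296, 2171 and 2621 at P3. Every E16.5 library was above every other library, and P0 and P3 overlapped. Lef1 rose by 0.97 on the log2 scale to E16.5 and then fell by 1.56 (SE 0.0907 each; limma, adjusted p = 3.85e-08 and 2.91e-10). P3 against P0 was -0.09 (adjusted p = 0.400), and this value became -0.26 under TMM factors, -0.53 under median-of-ratios factors and -0.93 under equal totals, each past the threshold. Of the exon bases of Lef1, 13.7% lie in the antisense gene Gm43352, which had at most 18.2 normalized counts.

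Tcf7l1 (ENSMUSG00000055799, chr6:72626378-72789254, minus strand) encodes TCF3, the member of the family best known as a repressor in pluripotent cells. Its normalized counts were 1201, 1220 and 1306 at E13.5, 280.5, 286.4 and 259.6 at E16.5, 454.3, 487.4 and 440.7 at P0, and 255.8, 279.9 and 329.0 at P3. E13.5 stood above all other libraries and P0 above E16.5 and P3. The fall to E16.5 was 4.51-fold on the means (log2 -2.17, SE 0.114; limma, adjusted p = 2.23e-11). The later steps were 0.74 and -0.68, with adjusted p of 3.14e-05 and 4.44e-05, and all 3 kept their sign and their call under the 4 scalings.

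Tcf7l2 (ENSMUSG00000024985, chr19:55741820-55933654, plus strand) encodes TCF4, a partner of beta-catenin studied in gut and brain. It had 44.3, 28.3 and 53.6 normalized counts at E13.5, 95.4, 74.4 and 84.7 at E16.5, 502.8, 568.9 and 483.6 at P0, and 996.2, 976.2 and 1140 at P3. No 2 ages overlapped, and each was above the one before. The steps were 1.03, 2.60 and 0.999 on the log2 scale (SE 0.200 each), with limma's adjusted p of 0.000163, 8.6e-09 and 0.000253. Under equal totals the last step was 0.16 (adjusted p = 0.468). From E13.5 to P3 the mean rose 24.6-fold (log2 4.63, adjusted p = 3.52e-12), and under the other scalings this log2 value reached 4.95.

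Within the family, shares of the summed reads per kb of exon do not depend on library scaling. Tcf7 made up 79.8% ± 1.20 of the family at E13.5, then 82.4% ± 1.08 at E16.5, 84.8% ± 0.623 at birth and 90.3% ± 0.238 at P3 (SD, n = 3). Lef1 made up 11.5% ± 0.433, 16.0% ± 0.942, 9.36% ± 0.144 and 5.68% ± 0.227. Tcf7l1 held 8.55% ± 0.803 at E13.5 and 1.35% ± 0.0976 at E16.5, then 3.88% ± 0.447 and 1.55% ± 0.0695. Tcf7l2 held 0.129% ± 0.0401, 0.187% ± 0.0384, 1.95% ± 0.256 and 2.50% ± 0.0566, passing Tcf7l1 at P3. In an exact permutation test of the F statistic over ages, p was 6.49e-05 for the shares of Tcf7, Lef1 and Tcf7l1, the smallest value that 369600 assignments of libraries allow, and 0.00013 for Tcf7l2. After adjustment over the 8 shares tested in 3 gene families these were 0.000173 and 0.00026. The levels depend on the length used: with the longest transcript in place of the exon union, Lef1 held 22.3%, 30.0%, 18.4% and 11.6%, and Tcf7 held 68.5% at E13.5 and 68.3% at E16.5, so the order of those 2 ages for Tcf7 turned.

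**Figure D3:**
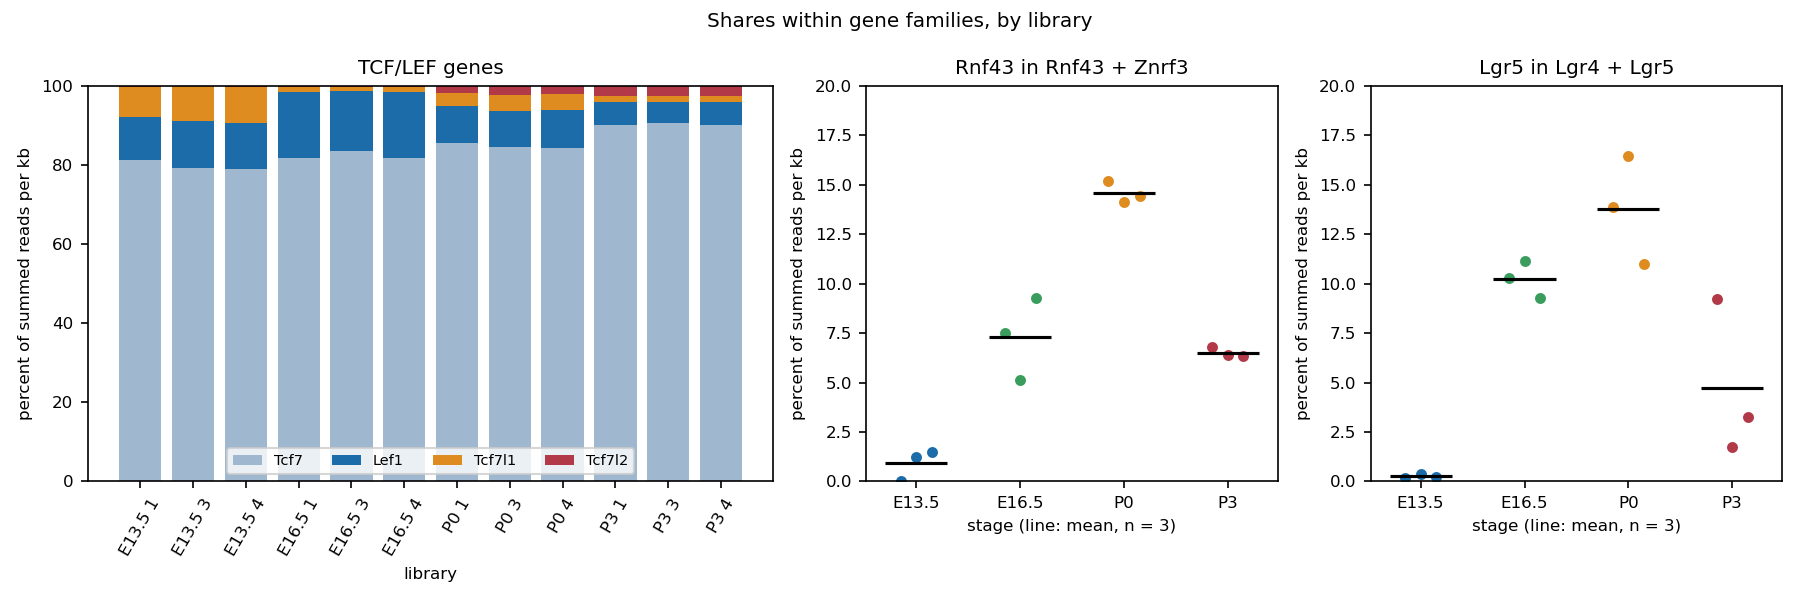
Shares (y axis, percent of summed reads per kb of exon) within 3 gene families: the 4 TCF/LEF genes as stacked bars for each of the 12 libraries (left), and Rnf43 of Rnf43 plus Znrf3 (middle) and Lgr5 of Lgr4 plus Lgr5 (right) as points by age with the mean as a line. Tcf7l1 shrinks after E13.5, Lef1 is widest at E16.5, and the Rnf43 share at P0 (14.1% to 15.2%) lies above all other libraries.

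Lgr4 and Lgr5 encode receptors of the R-spondins. Lgr4 (ENSMUSG00000050199, chr2:109917647-110014257, plus strand) had the steepest change among the 10 genes. Its normalized counts were 5399, 4907 and 4726 at E13.5, 152.7, 225.0 and 226.4 at E16.5, 379.6, 403.2 and 397.2 at P0, and 273.3, 352.6 and 342.1 at P3. Every E13.5 library was more than 10 times as high as any other library, and the P0 libraries were above those of E16.5 and P3. The mean fell 24.9-fold to E16.5 (5011 ± 349 to 201.4 ± 42.2, SD, n = 3; log2 -4.65, SE 0.143; limma, adjusted p = 3.3e-14), and this log2 value lay between -4.65 and -4.15 under the 4 scalings. The summed level of 5 endothelial genes was also highest at E13.5, at 4429 to 5192 normalized counts against at most 1314 later. Pecam1 made up 4326 to 5074 of it at E13.5, while Kdr had at most 6.33 and Emcn was at 0 in those libraries. Lgr4 rose by 0.99 to P0 (adjusted p = 1.66e-05). P3 against P0 was -0.29 (adjusted p = 0.0732) and passed the threshold at -0.46 under TMM factors, at -0.29 with edgeR (adjusted p = 0.0404) and DESeq2 (0.0331), and at -0.29 without E16.5 library 1 (0.0203).

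Lgr5 (ENSMUSG00000020140, chr10:115450311-115587780, minus strand), a WNT target and a marker of stem cells in gut epithelium, was scarce. It had 17.9, 33.7 and 20.0 normalized counts at E13.5, 30.5, 49.3 and 40.4 at E16.5, 106.5, 138.6 and 85.4 at P0, and 48.5, 10.8 and 20.2 at P3. All P0 libraries were above all others, and the remaining ages overlapped. The rise to P0 was 1.44 and the fall to P3 -2.24 (SE 0.441 each; limma, adjusted p = 0.00997 and 0.000222), and E16.5 against E13.5 was 0.75 (adjusted p = 0.128). Sertoli, peritubular and mast cell marker sums were also highest at P0, mast cell genes at 1277 to 2856 normalized counts there and 0 in every E13.5 library, and their part in the Lgr5 result was not tested. Without E16.5 library 4, P0 library 1 and P3 library 3 both Lgr5 steps kept their call. P0 libraries 3 and 4, which stayed in, held mast cell sums of 2159 and 1277 and Sertoli cell sums of 4621 and 2793. The kept calls therefore do not test the part of those cells.

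The ratio of the 2 receptors differed between ages while their order did not. Lgr5 made up 0.275% ± 0.105 of the summed reads per kb of the pair at E13.5, then 10.2% ± 0.941 at E16.5, 13.8% ± 2.74 at birth and 4.74% ± 3.96 at P3 (SD, n = 3). The exact permutation p over ages was 0.000195 (0.00026 adjusted over the 8 shares). P3 library 1 stood at 9.23% while the other P3 libraries held 1.73% and 3.28%. Lgr4 remained the more abundant receptor in all 12 libraries.

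Axin2, Rnf43 and Znrf3 are feedback genes: WNT signalling raises them and their products damp it. Axin2 (ENSMUSG00000000142, chr11:108920349-108950783, plus strand), a widely used readout of the pathway, was low at every age. Its normalized counts were 66.5, 80.5 and 69.4 at E13.5, 46.8, 81.8 and 73.6 at E16.5, 64.7, 70.6 and 64.2 at P0, and 32.0, 35.4 and 49.6 at P3. Libraries of the first 3 ages overlapped, and the P3 libraries lay below those of E13.5 and P0 but reached above E16.5 library 1. P3 against P0 was -0.78 (SE 0.274; limma, adjusted p = 0.0166), whereas the 2 earlier steps were -0.13 and 0.02 (adjusted p = 0.667 and 0.958). The fall to P3 missed the threshold without P0 library 3 (-0.74, adjusted p = 0.0508), without P3 library 1 (-0.65, 0.0610) and without the 3 libraries named for Leydig and mast cell genes (-0.74, 0.0909). It kept its sign under the 4 scalings, between -1.61 and -0.78.

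Rnf43 (ENSMUSG00000034177, chr11:87662722-87735539, plus strand) was the least abundant of the 10 at E13.5, with 0, 8 and 10 reads in the 3 libraries, where a count of 0 allows up to 3 reads by counting error alone. In normalized counts it had 0, 8.71 and 10.5 at E13.5, 36.3, 37.2 and 51.4 at E16.5, 89.3, 87.5 and 98.0 at P0, and 39.7, 43.2 and 51.6 at P3. Every library after E13.5 was above all E13.5 libraries, and P0 was above all others. The rise to E16.5 was 3.13 on the log2(normalized count + 1) scale (SE 0.642; limma, adjusted p = 0.000284), and without E13.5 library 1, the library at 0, it was 1.99 (adjusted p = 2.09e-05), against 3.76 without E13.5 library 4. The P0 step was 1.14 and the P3 step -1.02, with adjusted p of 0.137 and 0.158. Both passed with edgeR (0.00659 and 0.00994), with DESeq2 (0.00104 and 0.00234) and without E13.5 library 1 (0.00208 and 0.00324). Peritubular and Sertoli marker sums were highest at P0 too, and their part in the Rnf43 values was not tested.

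Znrf3 (ENSMUSG00000041961, chr11:5276324-5444847, minus strand) had 942.6, 840.1 and 840.2 normalized counts at E13.5, 536.3, 829.4 and 604.7 at E16.5, 598.9, 640.1 and 698.4 at P0, and 654.1, 763.1 and 921.1 at P3. Ages after E13.5 overlapped one another. E16.5 against E13.5 was -0.43 (SE 0.149; limma, adjusted p = 0.0136), but 0.07 under equal totals, -0.21 under median-of-ratios factors (adjusted p = 0.195) and past the threshold in neither. It also missed the threshold without E13.5 library 1 (0.0510), without E16.5 library 1 (0.0853) and without E16.5 library 4 (0.0522). The P0 and P3 steps were -0.00 and 0.26, with adjusted p of 0.991 and 0.124, and without P3 library 1 the latter was 0.38 (0.0430).

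Of the summed reads per kb of the ligase pair, Rnf43 made up 0.905% ± 0.794 at E13.5, then 7.31% ± 2.09 at E16.5, 14.6% ± 0.559 at birth and 6.50% ± 0.269 at P3 (SD, n = 3; exact permutation p = 0.000455 over ages, the same after adjustment over the 8 shares). Znrf3 was the more abundant ligase gene in all 12 libraries. With the longest transcript as length the Rnf43 share was 1.10%, 8.75%, 17.2% and 7.80%, in the same order of ages.

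**Figure D4:**
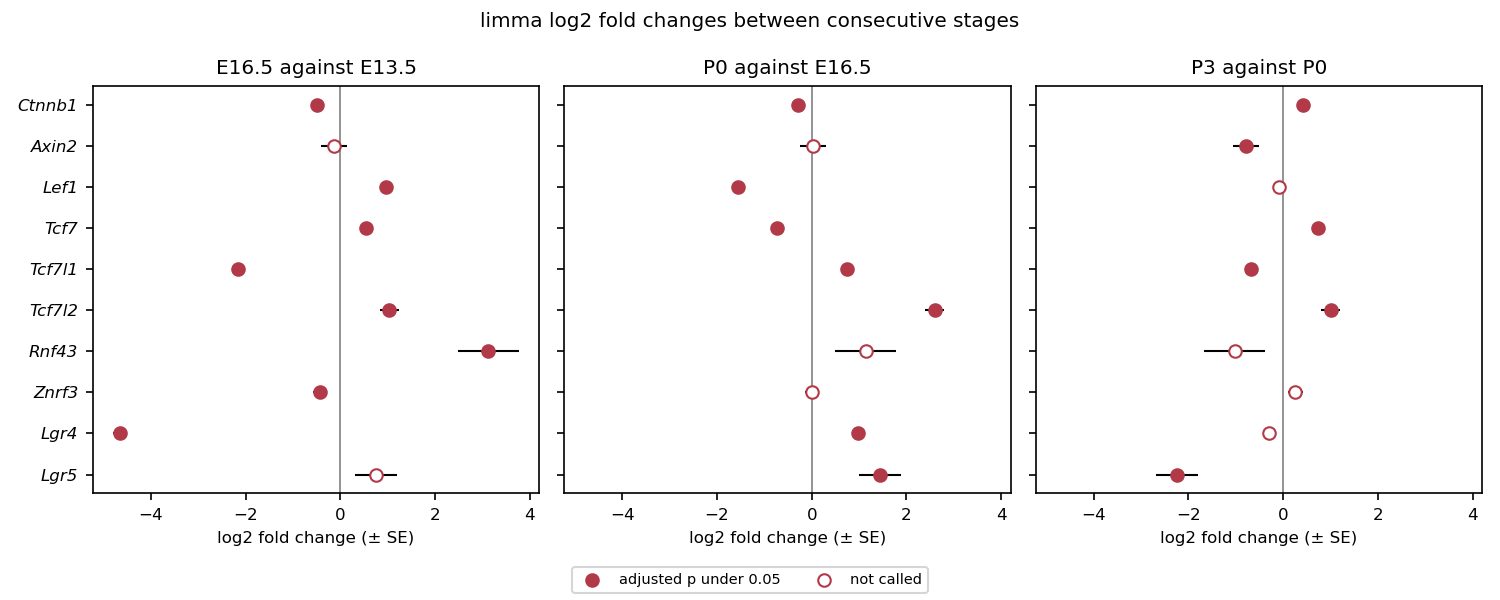
limma log2 fold changes with their SE (x axis) of the 10 genes (rows) for the 3 steps between consecutive ages; filled points have an adjusted p under 0.05. Lgr4 stands furthest left at E16.5 against E13.5 (-4.65), and Tcf7l2 lies to the right of 0 in all 3 panels.

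Promoter windows were read from a RefSeq table on GRCm38.p6, from 250 bases before to 50 after each listed start. It gave 15 windows for 8 of the 10 genes. They were searched on both strands for the TCF/LEF core CTTTGAT (held by 3.73% of all 32851 windows of that length) and for its variants CTTTGAA (5.14%), CTTTGTT (5.85%) and CTTTGTA (3.63%). Any of the 4 was in 16.9% of windows. Of the member windows, 2 of 15 held a match. Lgr4 and Tcf7l1, the 2 genes that fell most at E16.5, are shown first, each with its single window and no match. Lef1 and Tcf7l2, which rose at E16.5, are shown at the downstream starts that hold the matches, in capitals (for Lef1 the reverse complement of CTTTGTA). All are written 5′ to 3′ on the strand of the gene.
Lgr4, chr2:109917397-109917696, plus strand: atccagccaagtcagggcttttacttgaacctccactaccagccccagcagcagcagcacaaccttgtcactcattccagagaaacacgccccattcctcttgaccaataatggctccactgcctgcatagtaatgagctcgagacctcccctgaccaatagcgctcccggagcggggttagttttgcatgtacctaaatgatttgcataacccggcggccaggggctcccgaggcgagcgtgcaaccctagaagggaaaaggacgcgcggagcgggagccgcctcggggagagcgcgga
Tcf7l1, chr6:72788996-72789295, minus strand: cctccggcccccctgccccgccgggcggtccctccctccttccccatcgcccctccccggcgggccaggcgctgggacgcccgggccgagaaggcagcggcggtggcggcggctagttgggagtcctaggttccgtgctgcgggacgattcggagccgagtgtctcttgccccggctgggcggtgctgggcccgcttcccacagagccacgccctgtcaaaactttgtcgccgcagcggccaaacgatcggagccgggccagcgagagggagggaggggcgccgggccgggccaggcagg
Lef1, chr3:131156044-131156343, plus strand: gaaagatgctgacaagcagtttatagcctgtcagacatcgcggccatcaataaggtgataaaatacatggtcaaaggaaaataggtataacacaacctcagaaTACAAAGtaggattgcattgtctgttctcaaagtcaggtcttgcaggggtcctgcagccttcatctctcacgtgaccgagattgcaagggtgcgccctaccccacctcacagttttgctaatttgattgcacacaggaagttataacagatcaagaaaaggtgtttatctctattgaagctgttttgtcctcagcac
Tcf7l2, chr19:55895071-55895370, plus strand: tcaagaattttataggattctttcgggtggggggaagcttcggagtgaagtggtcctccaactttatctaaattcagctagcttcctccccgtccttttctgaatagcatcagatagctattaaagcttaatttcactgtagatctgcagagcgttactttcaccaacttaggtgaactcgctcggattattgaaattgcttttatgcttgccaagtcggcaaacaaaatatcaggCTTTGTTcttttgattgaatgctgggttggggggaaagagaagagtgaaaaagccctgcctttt

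The Lgr4 and Tcf7l1 windows held 18 and 34 CpG dinucleotides, and the downstream windows of Lef1 and Tcf7l2 held 5 and 7, against a median of 7 over all windows. The upstream windows of Lef1 held 18, 21 and 8 and that of Tcf7l2 held 34, so the low values belong to the windows shown and not to the genes. The match in Lef1 begins at position -147 from the start and that in Tcf7l2 at -14. Lef1 has 4 listed starts and Tcf7l2 has 2, with no match at the upstream ones. Counts per gene do not tell which start a transcript used, so the rise of either gene cannot be assigned to the windows shown. A match is a string of letters, and no binding was measured here.

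P0 against E13.5 compares ages with the tag Morc1 (+/-). Of the 10 genes, 3 were higher at P0 (Tcf7l2, Rnf43 and Lgr5, by 3.64, 4.26 and 2.18 on the log2 scale) and 5 were lower (Ctnnb1, Lef1, Tcf7l1, Znrf3 and Lgr4), beside 86.1% of all genes called by limma (45.7% higher, 40.5% lower; 70.5% at least 2-fold, as were 5 of the 10). Without E13.5 library 1 the Rnf43 value was 3.13, and without E13.5 library 4 it was 4.89. Lgr4 stood at -3.67 and Tcf7l1 at -1.43 (adjusted p = 3.08e-13 and 3.73e-09). Equal totals turned Ctnnb1 from -0.78 to 0.39, Lef1 from -0.59 to 0.58 and Znrf3 from -0.44 to 0.73. In all they gave 8 higher and 2 lower calls among the 10 genes, beside 15372 and 4550 of 23221 genes tested. Median-of-ratios factors gave the 10 genes 4 higher and 3 lower calls, beside 12134 and 7360 of 22735 genes tested. Of the 5 falls only those of Lgr4 and Tcf7l1 kept sign and call under the 4 scalings.

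P3 against E16.5 compares ages with the tag Morc1 (-/-), and fewer of the 10 genes differed: 2 were higher (Tcf7l2 by 3.60, Lgr4 by 0.69) and 2 lower (Lef1 by 1.64, Axin2 by 0.76), beside 69.5% of all genes (34.2% higher, 35.2% lower; 45.3% at least 2-fold, as were 2 of the 10). limma's adjusted p was 9.34e-11, 0.000415, 8.78e-11 and 0.0212 in that order. All 4 scalings gave these 2 and 2 calls. The Axin2 call missed the threshold without E16.5 library 3 or 4 or without P3 library 1 or 3 (adjusted p from 0.0563 to 0.0932). Without P3 library 1, Lgr5 and Znrf3 passed it (-1.35 and 0.38), without E16.5 library 3, Ctnnb1 and Znrf3 did (0.20 and 0.44).

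P3 against E13.5, the ends of the series, gave 3 higher (Tcf7 0.53, Tcf7l2 4.63, Rnf43 3.24) and 5 lower calls (Ctnnb1 -0.38, Axin2 -0.89, Lef1 -0.67, Tcf7l1 -2.11, Lgr4 -3.96), beside 70.4% of all genes (39.2% higher, 31.2% lower; 45.4% at least 2-fold, as were 4 of the 10). By limma, these 8 genes had adjusted p at or below 0.00826. The tag differs as well, Morc1 (-/-) at P3 and Morc1 (+/-) at E13.5, so age and tag cannot be told apart here. The Rnf43 value was 2.11 without E13.5 library 1 and 3.87 without E13.5 library 4. With equal totals the counts were 3 and 3, Ctnnb1 and Axin2 no longer passing, beside 10871 higher and 4898 lower of 23221 genes tested. The level of Lgr4 at P3 was 322.6 ± 43.1 and at E13.5 it was 5011 ± 349 (SD, n = 3), so its rise after E16.5 left it 15.5-fold below the start.

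The wider pathway was described through 9 lists of other WNT genes, 110 in all, of which 106 passed the filter (Wnt1, Wnt10b, Dkk4 and Msgn1 did not). Over these lists 43 genes rose and 44 fell from E13.5 to E16.5, 41 rose and 21 fell from E16.5 to P0, and 41 rose and 41 fell from P0 to P3. These counts, and those of each list below, stand beside the shares of all genes called, 80.1%, 61.0% and 76.5%. By direction, 45.5% of all genes were called higher and 34.6% lower in the first step. The second step gave 27.6% and 33.4%, and the third 40.1% and 36.4%. The medians of the 106 list genes were -0.14, 0.26 and -0.13, and those of all genes 0.31, -0.01 and 0.05.

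Among the 9 lists, the median of the WNT ligands had the widest swing. From E13.5 to E16.5, 12 of 17 tested rose and 2 fell (median log2 2.45 against 0.31 for all genes), from E16.5 to P0 7 rose and 1 fell (median 0.32), and from P0 to P3 0 rose and 11 fell (median -1.88). Under equal totals the counts were 14 and 2, 13 and 0, and 0 and 17 of 18 tested. The 13135 genes with a mean of at least 100 normalized counts gave 4859 higher and 6600 lower calls at E16.5. At P3 they gave 7843 and 3406. Among all 22384 genes tested these counts were 10180 and 7752, and 8966 and 8156. Genes below that mean, several ligand genes among them, therefore rose at E16.5 and fell at P3 more often. Whether the ligands moved more than genes as low was not tested. The most abundant ligand gene at E13.5, Wnt3, went the other way: 5098 ± 396 normalized counts at E13.5, then 687.5 ± 9.51 at E16.5, 857.0 ± 25.0 at birth and 948.5 ± 46.0 at P3 (log2 -2.89 for the first step, limma, adjusted p = 1.21e-14). Wnt11, of the noncanonical branch, had 9.20 ± 2.31, 623.4 ± 135, 387.9 ± 52.3 and 107.5 ± 33.0 (5.94 for the first step, adjusted p = 1.67e-12). Wnt5b rose by 2.45 at E16.5 and stayed between 816.1 and 970.6 on average. Wnt16 rose by 3.18 at P0 and Wnt4, which supports ovarian and adrenal development, fell by 4.02 at P3. Wnt6 had 761.0 ± 353 at E16.5 and 1279 ± 532 at P0, with overlapping libraries. At E16.5, the age of most ligand rises, the median sum of peritubular and interstitial genes was 1703 normalized counts against 252.4 at E13.5, that of 5 macrophage genes 1036 against 73.6, and that of 6 blood cell genes 1926 against 186.8. Sertoli and peritubular sums were highest at P0 and lower at P3. The part of these cell types in the ligand counts was not tested.

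Of the secretion genes, Wls, which carries WNT proteins to the surface, rose by 0.79 and 0.96 in the first 2 steps and fell by 1.33 at P3. Porcn, the enzyme that attaches their lipid, fell by 2.46 at P3 (limma, adjusted p = 2.82e-10), from 309.6 ± 34.2 to 55.4 ± 7.26 normalized counts (SD, n = 3).

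The R-spondins, ligands of the LGR receptors, differed from each other. Rspo4 had 62.9 ± 34.0 normalized counts at E13.5, then 4645 ± 470 at E16.5, 2520 ± 196 at birth and 1801 ± 62.3 at P3 (SD, n = 3). It was at its lowest at the age at which Lgr4 was at its highest, and its first step was 6.32 (limma, adjusted p = 4.16e-13). Rspo2 rose at each step, by 2.78, 0.80 and 0.59, the last of which was -0.25 under equal totals. Rspo1, by contrast, had its highest mean at E13.5, as Lgr4 did, and stood above Rspo4 there. Its first step was not called. The Rspo1 mean was 667 normalized counts by E16.5, then 553 by birth, and it fell by 2.61 to 90.4 in the last step. Rspo3 rose by 2.77 at P0 and fell by 4.96 at P3. In counts, 2 of 4 rose and 0 fell, then 2 rose and 1 fell, then 1 rose and 2 fell.

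Among 17 receptor genes outside the 10, 5 rose and 7 fell at E16.5, 6 rose and 4 fell at P0, and 10 rose and 3 fell at P3. Under equal totals these were 8 and 7, 10 and 3, and 6 and 6. Lgr6, the third R-spondin receptor, rose from 6.38 ± 7.59 to 228.7 ± 10.3 normalized counts at E16.5 (5.71; limma, adjusted p = 2.27e-07) while Lgr4 fell. Its step was 6.63 without E13.5 library 1 and 4.64 without E13.5 library 4. Fzd5 fell by 2.94 and 1.51 and rose by 1.97 at P3. The co-receptor genes Ryk and Ptk7 and the receptor gene Fzd3 were the most abundant on average. Ptk7 stood at 873.0 ± 121, 1387 ± 143, 617.7 ± 30.7 and 2608 ± 355 normalized counts, Fzd3 rose by 1.72 at P3, and Ryk rose at each step in the deposited scaling, the last step turning to -0.60 under equal totals. Ror1 fell by 2.82 at P3.

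Of 16 tested genes for secreted and surface inhibitors, 6 rose and 9 fell at E16.5, 9 rose and 2 fell at P0, and 5 rose and 8 fell at P3. With equal totals these were 6 and 7, 14 and 1, and 3 and 11. Sfrp2, a secreted Frizzled-like protein, had 4453 ± 162 normalized counts at E13.5, then 413.0 ± 51.4 at E16.5, 709.3 ± 29.0 at birth and 6817 ± 226 at P3, with steps of -3.43, 0.79 and 3.26 (limma, adjusted p = 5.19e-15, 9.25e-07 and 3.69e-14). Sfrp1 fell by 1.19 at P3 and Tpbg fell by 1.76 at E16.5. Frzb rose by 3.87 at P0, and Sfrp5 rose by 3.26 at P3.

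The 16 genes of the destruction complex and the dishevelled proteins gave these counts in the deposited scaling: 4 rose and 11 fell at E16.5, 3 and 9 at P0, and 11 and 4 at P3. Of all genes, 34.6% and 33.4% were called lower in the first 2 steps and 40.1% higher in the third. The median of the 16 genes was -0.60, -0.31 and 0.49, beside 0.31, -0.01 and 0.05 for all genes. For the 13135 genes with a mean of at least 100 normalized counts it was -0.27, -0.29 and 0.58. Of those, 6600 and 6611 were called lower in the first 2 steps and 7843 higher in the third, so the list moved in the direction of abundant genes. Under equal totals the counts of the 16 genes were 5 and 7, 10 and 4, and 4 and 10, so the direction at P0 and P3 turned. Csnk1a1, the kinase that primes beta-catenin, moved by -0.80, -0.64 and 1.23, of which the second was 0.02 under equal totals. Csnk1d moved by -1.14, -0.17 and 1.09 and Fbxw11, of the ubiquitin ligase, by -0.81, -0.41 and 0.87. Gsk3a fell by 1.70 at E16.5. Apc2 went against the list, with rises of 2.85 and 1.69 and a fall at P3 (-3.05).

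Of 14 nuclear cofactors and repressors, 3 rose and 7 fell at E16.5, 3 rose and 3 fell at P0, and 8 rose and 2 fell at P3, and under equal totals 7 and 5, 13 and 0, and 3 and 7. Of the 13135 genes with a mean of at least 100 normalized counts, 4859 were called higher and 6600 lower at E16.5. At P3 these counts were 7843 and 3406, so in both steps the list moved in the direction of abundant genes. The Groucho genes Tle1 to Tle4, whose products hold TCF/LEF targets silent, were split. Tle4 had 10039 ± 893 normalized counts at E13.5 and 1313 ± 140 at E16.5 (-2.94; limma, adjusted p = 3.59e-14), then rose by 1.48. Tle2 rose by 4.51 at E16.5, while Tle1 stayed between 5481 and 7746 on average. The related gene Tle5 rose by 1.76 at P3. Pygo2 rose by 0.98 at P3.

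Among 14 further target and feedback genes, 8 rose and 5 fell at E16.5, 6 rose and 1 fell at P0, and 3 rose and 7 fell at P3 (equal totals: 9 and 4, 13 and 0, 2 and 12). Sp5, a direct target in embryos, fell from 2667 ± 278 to 191.3 ± 48.2 normalized counts at E16.5 (-3.82; limma, adjusted p = 1.49e-11). Ccnd1, cyclin D1, had 740.9 ± 130, 76.7 ± 6.44, 313.0 ± 30.8 and 7383 ± 440, with a rise of 4.56 at P3 (adjusted p = 5.02e-14). Ascl2 fell by 2.44 at E16.5 and rose by 1.17 at P3. Nkd1 rose by 0.92 at E16.5 and 0.46 at P3, the latter -0.38 under equal totals. Axin2 did not exceed 82 normalized counts in any library. At P0 it averaged 66.5, below Sp5, Ccnd1, Ascl2 and Nkd1 but above Sp8 (43.3), Cdx2 (46.6), Fgf20 (22.8) and Nkx1-2 (29.8).

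Of the 6 cadherin partners of beta-catenin, 2 rose and 3 fell at E16.5, 4 rose and 0 fell at P0, and 3 rose and 2 fell at P3. Cdh1, E-cadherin, went from 8081 ± 687 to 715.1 ± 230, 626.3 ± 3.80 and 2429 ± 174 normalized counts, and Ctnna1, alpha-catenin, from 10411 ± 449 to 1626 ± 240, 1975 ± 168 and 7039 ± 679. Both fell at E16.5 (-3.54 and -2.69; limma, adjusted p = 1.41e-12 and 4.36e-13) by more than Ctnnb1 did. Jup, plakoglobin, moved by 0.76, 0.61 and -0.87, Cdh2 rose by 0.72 at P0, and Ctnna2 fell by 2.32 at P3.

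**Figure D5:**
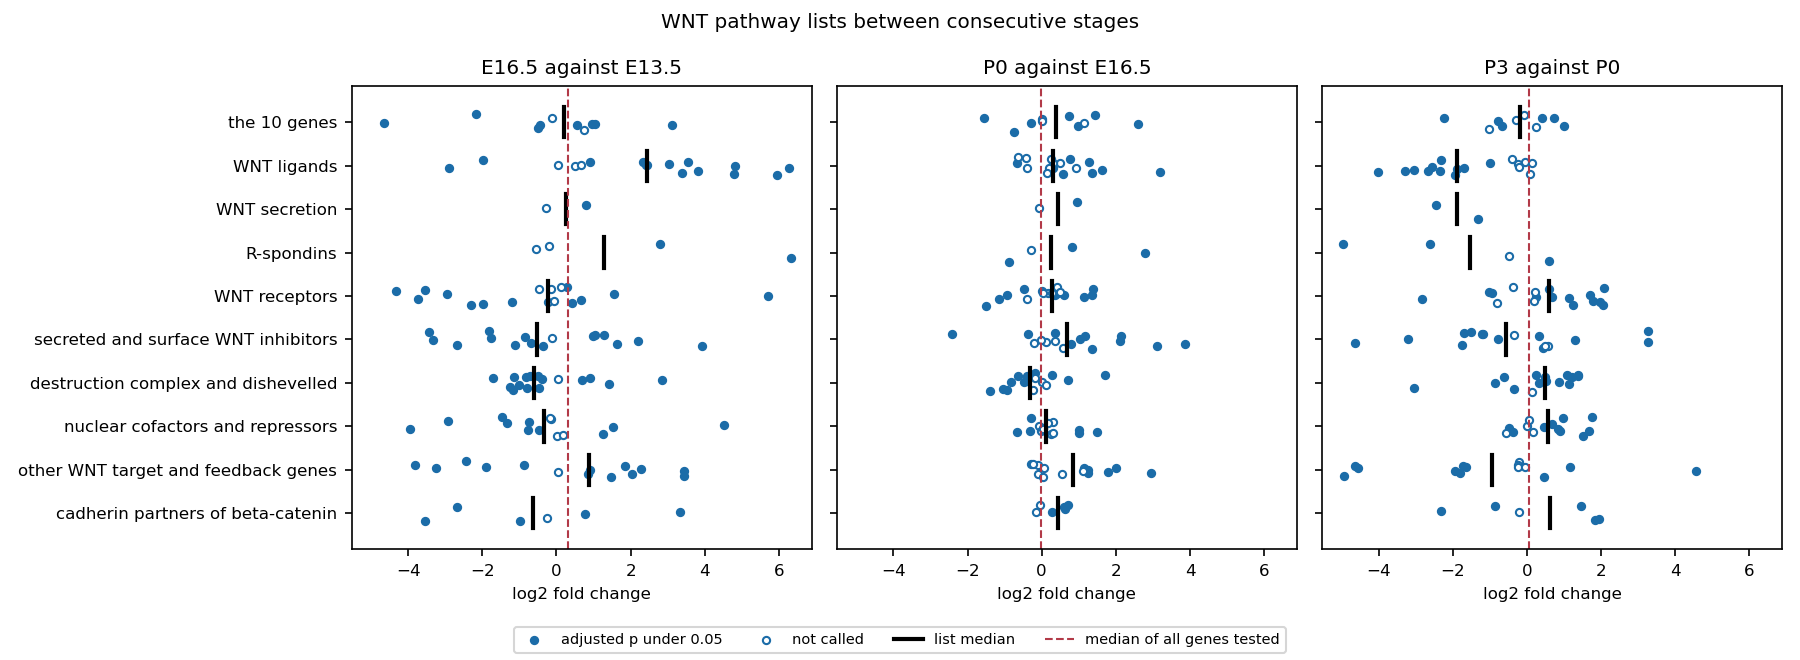
log2 fold changes (x axis) of the genes of the 10-gene set and of the 9 lists (rows) for the 3 steps between consecutive ages; filled points have a limma adjusted p under 0.05, black bars mark list medians and the dashed line the median of all genes tested. The ligands lie mostly to the right of 0 at E16.5 against E13.5 (12 of 17 higher) and to the left at P3 against P0 (11 of 17 lower).

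The genes whose log2 levels were most like each member over the 12 libraries were listed as a description, over 13615 genes that reached a mean of 100 normalized counts at some age. Libraries of 1 age share that age, so r mostly reflects the 4 age levels. Pecam1 (r = 0.997) and Gls2 (0.996) were closest to Lgr4. Pecam1 is also in the endothelial list, whose other genes were low at E13.5 (Cdh5 at most 16.8 normalized counts, Emcn at 0 in all 3 libraries) while Pecam1 had 4326 to 5074. Rabl6 (0.996) and Patj (0.993) were closest to Lef1, Vrtn (0.991) and Pde4b (0.989) to Tcf7l1, and Slc43a3 and Scap (both 0.990) to Tcf7l2. Hps3 (0.989) and Naa60 (0.988) were closest to Ctnnb1, and Gramd4 (0.970) and Fbxo34 (0.963) to Tcf7. Plekhh2 (0.937) and Rai2 (0.930) were closest to Lgr5, and Zdhhc17 (0.909) and Mast3 (0.897) to Znrf3.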

How the data were processed

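Gene counts from RNA sequencing of 12 gonocyte libraries, 3 at each age, were analysed. Per the labels' protocols, the RNA plus XS kit was used for RNA, and the SMART-seq v4 Ultra Low input and TruSeq mRNA kits for libraries. The submitters' processing notes name bcl2fastq 2.20, cutadapt 1.18, HISAT2 2.1.0, featureCounts 1.5.2 and DESeq2 1.26.0, with builds mm10 and GRCm38; the annotation release, the strand setting and the treatment of reads matching several genes are not given in the sources used here. The deposited signal is, per the file name, a featureCounts read count per gene divided by 1 RLE (relative log expression) factor for its library. In each library 100% of values were whole multiples of 1 unit within a tolerance of 0.001, so the authors' read counts and factors were recovered by division.

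The column names give the age and the numbers 1, 3 and 4, unlike the titles, which number replicates 1, 2 and 3. Columns were therefore assigned to ages only and are named here by their own number. The main test was limma 3.58.1 (R 4.3.3, eBayes with trend) on log2(normalized count + 1) in 1 fit of the 4 ages, with 8 residual degrees of freedom. It ran on 22384 genes, those reaching 10 normalized counts in 3 or more libraries. p-values were adjusted over all of these by Benjamini-Hochberg, and 0.05 was the threshold. A fold change on this scale can understate the change of a low gene, or overstate it where 1 library is near 0. For Rnf43, E16.5 against E13.5 was 3.13 with a ratio of means of 6.50, and 1.99 without E13.5 library 1. Shares within a family used reads per kb of GENCODE M21 exon union (GRCm38) and an exact permutation test over ages. Symbols matched 99.4% of identifiers, and Tle5 was matched as Aes.

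Alternatives were TMM, median-of-ratios and equal-total scaling, pseudocounts of 0.1 and 10, other filters, edgeR 4.0.16 and DESeq2 1.42.0 on recovered counts, fits of the 2 ages compared, a minimum log2 change of 1, and leaving out each library. Leaving out 3 libraries together and a block on the column number were chosen after seeing the data. Tested on simulated data of 21213 genes with 200 changed 4-fold at P0, limma called 98.5% of them for P0 against E16.5 and 5 unchanged genes. In that simulation few genes changed, equally often up and down, and the library factors were known. It therefore does not test how the calls depend on scaling.

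The members and all gene lists were chosen with earlier results of these data known. Named genes were the 10 members, the 3 most abundant of each list, the called gene of each list with the largest change at each step and a mean of 100 or more at the higher age, and the 2 genes most like each of the 8 members that reach that mean. The limit given for a count of 0 reflects counting error only, as reads without molecular identifiers are not independent molecules.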

Additional observations from a re-analysis of the deposited data

How the results depend on the processing

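When a log2 change of 1 or more in either direction was also required, the counts of members called were 4 for E16.5 against E13.5, 3 for P0 against E16.5, 1 for P3 against P0, 5 for P0 against E13.5, 2 for P3 against E16.5 and 4 for P3 against E13.5, in place of 8, 7, 6, 8, 4 and 8. Leaving out 1 library at a time gave 7 to 8, 7 to 8, 5 to 7, 8 to 9, 3 to 5 and 8 to 8 in the same order, 9 to 10 members differing among the 4 ages, 104 to 105 list genes changed, and 8 to 8 shares. Of all genes tested, 95.2% passed the F-test over the 4 ages. Such counts therefore do not set the members or the 106 tested list genes apart. Of 60 member values, 18 did not keep 1 sign over the 4 scalings. Counting only values past the threshold in the deposited or the other scaling, equal library totals reversed 12: Ctnnb1 to 0.013 (E16.5 against E13.5), 0.37 (P0 against E16.5), -0.43 (P3 against P0) and 0.39 (P0 against E13.5); Znrf3 to 0.0706, 0.66, -0.58 and 0.73 in the same comparisons; Axin2 to 1.04 and Lef1 to 0.58 (P0 against E13.5); Tcf7 to -0.11 (P3 against P0) and 0.97 (P0 against E13.5). Median-of-ratios factors reversed 3: Ctnnb1 to -0.0327 (P3 against P0), and Tcf7 to 0.28 and Znrf3 to 0.042 (P0 against E13.5). These scalings differ most at P0, and which one is right was not tested. Rnf43 had 0 to 10 reads in the libraries of E13.5, and Lgr5 had 17 to 31 there and 11 to 50 at P3. The column numbers 1, 3 and 4 recur at each age, whereas the titles count replicates otherwise. Deviations from the age means, over all genes tested, correlated between -0.036 and 0.042 in the 18 same-numbered pairs, and in 9 of 36 cases a library correlated best with its own number. With the column number as a replicate block, chosen after seeing the data, the counts were again 10 among the 4 ages and 8, 7, 6, 8, 4 and 8, and each of the 60 member values kept its sign and its side of the threshold.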
